A study of Mus musculus with 9 samples.

Results

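The genes described here encode subunits of the mitochondrial respiratory chain, and were listed by gene name: 39 genes for subunits of complexes I to IV and for cytochrome c, of 18193 genes with a probe set of their own on the array. Of the 39 genes, 21 belong to complex I, 4 to complex II, 6 to complex III and 7 to complex IV, and *Cycs* encodes cytochrome c. No subunit of ATP synthase is among them, although the name given to the set includes that enzyme, and its 17 measured genes are described separately. A probe set annotated to the gene alone was found for 38 of the 39, and *Cox7b* was not analysed here. The brightest such probe set stood for its gene, and the 38 passed the filter on low signals, the dimmest of them at percentile 96.2 of the mean signals of all probe sets.

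The respiratory chain takes electrons from NADH at complex I and from succinate at complex II and passes them through ubiquinone, complex III and cytochrome c to complex IV, which reduces oxygen to water. Complexes I, III and IV pump protons across the inner mitochondrial membrane, and ATP synthase uses the resulting gradient to make ATP. Most subunits are encoded in the nucleus and a few in mitochondrial DNA, and the colonic epithelium is known for its reliance on mitochondrial oxidation of short-chain fatty acids such as butyrate.

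RNA from whole large intestine, proximal and distal parts combined, was hybridised to 9 Affymetrix mouse arrays, 1 array per mouse, from 3 mice per group at 8 wk of age. Wild-type mice were C57BL/6. *Winnie* mice were C57BL/6 carrying a missense mutation, induced with N-ethyl-N-nitrosourea, in the mucin gene *Muc2* that replaces a cysteine with a tyrosine in the N-terminal D3-domain. *Eeyore* mice were of mixed C57BL/6 and NOD-SCID strain and carried another such *Muc2* mutation, replacing a serine with a proline in the C-terminal D4-domain. Each mutant strain descends from a single mutagenised founder line. The *Eeyore* allele and its mixed strain cannot be told apart in these arrays. All mice are labelled as male, yet *Xist* was high (7371 to 8261) and the Y-linked gene *Eif2s3y* low (4.73 to 24.1) in wild-type mice, against 9.13 to 107 and 1074 to 1454 in the mutant mice. Sex and *Muc2* allele therefore cannot be told apart either. The values were linear signals, scaled by the authors to the same trimmed mean on every array. The median signal was 118 to 129 on wild-type arrays and 87.9 to 99.3 on mutant arrays, so the scaling bears on each direction reported below.

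On the deposited scale, the median log2 difference of respiratory chain transcripts from wild-type was modestly positive in both mutant strains. It was 0.15 in *Winnie* mice, against 0.14 over genes at least as bright as the dimmest of the set. In *Eeyore* mice it was 0.31 against 0.20. The median was -0.02 in *Winnie* and 0.03 in *Eeyore* mice once each array was shifted by a constant that set its epithelial markers level. Of the 38 genes 10 rose and 0 fell in the *Winnie* strain, and 22 rose and 0 fell in the *Eeyore* strain (limma, Benjamini-Hochberg adjusted p under 0.05 over all tested probe sets). At an unadjusted p under 0.05 in limma, 16 rose and 0 fell in *Winnie* mice, against 28 and 0 in *Eeyore* mice. The share of all tested genes at that threshold was not counted, so these counts stand without a background. The 10 genes were 26.3% of the set in *Winnie* and the 22 genes 57.9% of it in *Eeyore* mice. Of all 11453 tested genes, 11.3% rose and 11.9% fell in *Winnie* mice, against 14% and 16.6% in *Eeyore* mice. The respiratory chain genes are among the brightest on the array, and rises were more common among bright genes. Of the 1042 tested genes at least as bright as the dimmest of the 38 (the 38 included), 31.8% rose and 9.79% fell in *Winnie* mice, against 39.5% and 11.1% in *Eeyore* mice. The share that rose was thus lower in the set than among the bright genes in *Winnie* mice, and higher in *Eeyore* mice. How these shares differ between the set and the bright genes was not tested.

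The median log2 difference over the 38 genes was 0.15 in *Winnie* and 0.31 in *Eeyore* mice, a fold of 1.11 and 1.24. Single genes ran from -0.20 for *Ndufa10* to 0.68 for *Ndufs4* in *Winnie*, and from -0.14 for *Ndufa1* to 0.76 for *Uqcrq* in *Eeyore* mice. The same median was -0.05 and -0.04 over all tested genes, and 0.14 and 0.20 over the genes at least as bright. Every *Winnie* mouse lay above every wild-type mouse for 21 of the 38 genes (55.3%), against 19.7% of all tested genes and 44% of the bright ones. In *Eeyore* mice this held for 28 genes (73.7%), against 20.7% and 47.6%. The median deviation of the 38 genes from the wild-type mean was 0.02, -0.02 and -0.00 in the wild-type mice, 0.17, 0.14 and 0.17 in the *Winnie* mice and 0.27, 0.36 and 0.27 in the *Eeyore* mice. The 3 groups did not overlap in this measure. Both strains were compared with the same 3 wild-type mice.

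**Figure D1:**
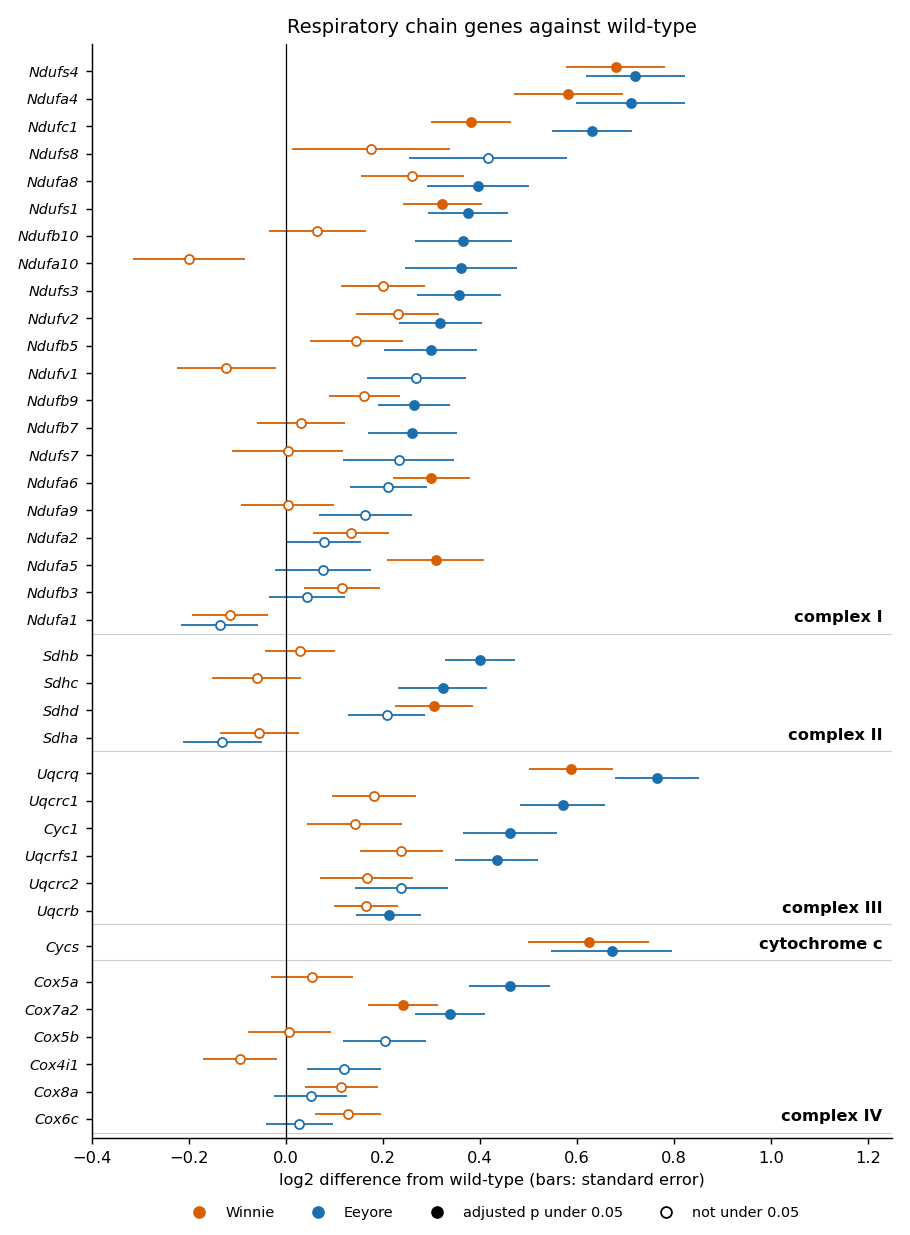
The log2 difference from wild-type (x axis) of each of the 38 respiratory chain genes, by complex, in *Winnie* (orange) and *Eeyore* mice (blue). Bars are standard errors of limma's fit with 3 mice per group, and filled points have an adjusted p under 0.05. In *Eeyore* mice 22 points are filled and in *Winnie* mice 10, all to the right of 0.

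The size of the median difference and the number of genes called rested on the scaling of the arrays, and so did the sign of the median in *Winnie* mice. With quantile normalization the medians were 0.07 in *Winnie* and 0.16 in *Eeyore* mice, and 7 and 12 genes rose, while *Ndufa1* and *Sdha* fell in *Eeyore* mice. Centring each array on its median moved the median of all tested genes to 0.36 in *Winnie* and 0.28 in *Eeyore* mice. On that scale the 38 genes had medians of 0.56 and 0.63 against 0.55 and 0.52 over the bright genes, and 37 and 36 rose. Centring on 8 epithelial markers, an alternative added after the values were seen, gave medians of -0.02 and 0.03. On that scale 4 genes rose and 4 fell in *Winnie* mice, against 6 and 3 in *Eeyore* mice. The bright genes had medians of 0.06 and 0.06 with quantile normalization and of -0.03 and -0.08 with epithelial centring. Both centrings shift all genes of an array alike, so the gap between the set and the bright genes is the same with them as on the deposited scale by construction, and only quantile normalization could change it.

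**Figure D2:**
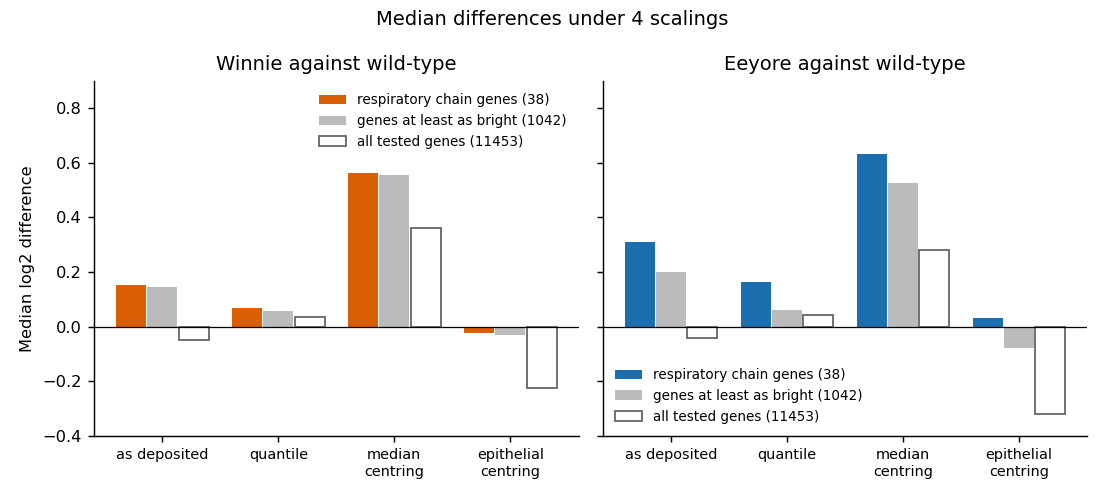
Median log2 difference from wild-type (y axis) of the 38 respiratory chain genes (coloured bars), of the 1042 tested genes at least as bright as the dimmest of them (grey) and of all 11453 tested genes (open), under 4 scalings, in *Winnie* (left) and *Eeyore* mice (right). The gap between coloured and grey bars is fixed by construction in the deposited and both centred scales, and the height of all bars changes with the scaling.

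Some genes rose under each of the 4 scalings. In *Winnie* mice these were *Ndufa4*, *Ndufs4*, *Uqcrq* and *Cycs*, and in *Eeyore* mice *Ndufa4*, *Ndufc1*, *Ndufs4*, *Uqcrc1*, *Uqcrq* and *Cycs*. Of the other genes called on the deposited scale in *Winnie* mice, *Ndufc1* and *Cox7a2* were called higher under 3 of the 4 scalings, and *Ndufa5*, *Ndufa6*, *Ndufs1* and *Sdhd* under 2. In *Eeyore* mice *Sdhb*, *Uqcrb*, *Uqcrfs1*, *Cyc1*, *Cox5a* and *Cox7a2* were called under 3, and *Ndufa8*, *Ndufa10*, *Ndufb5*, *Ndufb7*, *Ndufb9*, *Ndufb10*, *Ndufs1*, *Ndufs3*, *Ndufv2* and *Sdhc* under 2.

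Promoter sequence of the RefSeq annotation (GRCm38.p6, from 250 bases before to 50 after the start of transcription) was read for 28 of the 39 genes in 29 promoters. Exact matches were sought on both strands to GCGCANGCG, the core bound by nuclear respiratory factor 1 (NRF1), to CCGGAAG, bound by ETS factors such as GABP, to AANATGGCG, bound by YY1, and to TCAAGGTCA, bound by oestrogen-related receptors. These factors are the best known regulators of nuclear genes for mitochondrial proteins. The NRF1 core was found in 31% of the 29 promoters and in 8.58% of 21262 promoters of protein-coding genes. The ETS sequence was found in 20.7% against 11.6%, the YY1 sequence in 13.8% against 3.12% and the receptor sequence in 3.45% against 0.334%. In the set these were 6, 4 and 1 of the 29 promoters. A match describes the sequence only. Matches also occurred in genes whose brightest probe set was called in neither strain on the deposited scale. These were the NRF1 core in *Sdha*, the YY1 sequence in *Ndufa9* and *Ndufs7*, and the ETS sequence in *Cox8a* and *Ndufs8*. Stretches with a match are shown for genes that rose in 1 or both strains, with the matches in capitals, reading 5′ to 3′ on the strand of the gene, so that a match on the other strand appears as its reverse complement:
Cycs promoter, chr6:50566582-50566670, reverse strand: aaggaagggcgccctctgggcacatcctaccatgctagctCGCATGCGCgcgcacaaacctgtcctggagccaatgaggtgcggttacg
Ndufa8 promoter, chr2:36049339-36049407, reverse strand: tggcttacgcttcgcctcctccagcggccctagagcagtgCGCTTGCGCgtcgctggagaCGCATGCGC
Sdhd promoter, chr9:50603880-50603968, reverse strand: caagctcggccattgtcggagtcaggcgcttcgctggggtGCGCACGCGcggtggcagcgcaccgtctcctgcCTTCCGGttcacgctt
Uqcrc1 promoter, chr9:108936644-108936672, forward strand: ttccttacagCGCTTGCGCctcagactcc
Ndufs4 promoter, chr13:114388045-114388069, reverse strand: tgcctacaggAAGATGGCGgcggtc
Ndufc1 promoter, chr3:51408915-51408943, reverse strand: cctgcggaacAAGATGGCGccgtccgtag
The capitals are the NRF1 core in *Cycs*, *Ndufa8* and *Uqcrc1*. The window of *Ndufa8* held 2 matches to it and that of *Uqcrc1* held 3, of which the stretch shows the first. In *Sdhd* they are the NRF1 core followed by the ETS sequence, and in *Ndufs4* and *Ndufc1* the YY1 sequence. The window of *Sdhd* also held the receptor sequence, outside the stretch shown. The first capital base lies 61 bases before the start of transcription in *Cycs* and 29 before it in *Ndufa8*. In *Uqcrc1*, *Ndufs4* and *Ndufc1* the matches lie after the start. In *Ndufa4*, which rose under each scaling in both strains, none of the 4 sequences occurred in the window, and *Uqcrq* was not in the table.

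Complex I, the entry point for NADH, held most of the set: of its 21 genes, 6 rose in *Winnie* mice and 12 did so in *Eeyore* mice, with medians of 0.16 and 0.30. *Ndufs4*, on chromosome 13, encodes an accessory subunit of the peripheral arm needed for a stable complex. Its signals were 3511, 3198 and 3247 in the wild-type mice, 4742, 5836 and 5409.9 in the *Winnie* mice and 5120.1, 5835 and 5456 in the *Eeyore* mice. Each mutant mouse lay above each wild-type mouse, and the strains overlapped. The log2 difference was 0.68 ± 0.10 (adjusted p = 0.00109) in *Winnie* and 0.72 ± 0.10 (adjusted p = 0.000462) in *Eeyore* mice, a fold of 1.6 and 1.65. *Ndufa4*, on chromosome 6, was first assigned to complex I and later found in complex IV, and is counted with complex I here. It measured 3360.1, 3175 and 3064 in the wild-type mice, 4469, 4858 and 5045 in the *Winnie* mice and 4729.9, 6165 and 4909.9 in the *Eeyore* mice. The groups were separate from wild-type again, and *Eeyore* mouse 2 was the highest. *Ndufa4* rose by 0.58 ± 0.11 (adjusted p = 0.00425) in *Winnie* and by 0.71 ± 0.11 (adjusted p = 0.000876) in *Eeyore* mice.

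*Ndufc1*, a small accessory subunit of the membrane arm encoded on chromosome 3, had signals of 9771, 9373 and 9482 in the wild-type mice, 13129.8, 11527 and 12692 in the *Winnie* mice and 13740.0, 15019 and 15633 in the *Eeyore* mice. Its 3 groups did not overlap, and *Eeyore* mice were the highest. It rose by 0.38 ± 0.08 (adjusted p = 0.00747) in *Winnie* and by 0.63 ± 0.08 (adjusted p = 0.000279) in *Eeyore* mice. The difference of 0.25 ± 0.08 between the strains (limma, adjusted p = 0.163) did not pass the test. *Ndufs1* encodes the largest subunit, which holds iron-sulphur clusters on the path of the electrons, and lies on chromosome 1. Its signals were 4151, 4153 and 4337 in the wild-type mice, 5219, 5303 and 5276 in the *Winnie* mice and 5457, 5663 and 5279 in the *Eeyore* mice. Mutant mice were above wild-type mice without overlap, with differences of 0.32 ± 0.08 (adjusted p = 0.016) in *Winnie* and 0.38 ± 0.08 (adjusted p = 0.00534) in *Eeyore* mice. *Ndufa8*, an accessory subunit facing the intermembrane space and encoded on chromosome 2, measured 4488, 4472 and 4658 in the wild-type mice, 5091, 5294 and 5963 in the *Winnie* mice and 5479, 6864 and 5668 in the *Eeyore* mice. It rose in *Eeyore* mice, by 0.40 ± 0.11 (adjusted p = 0.0152). In *Winnie* mice its difference was 0.26 ± 0.11 (adjusted p = 0.0982).

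**Figure D3:**
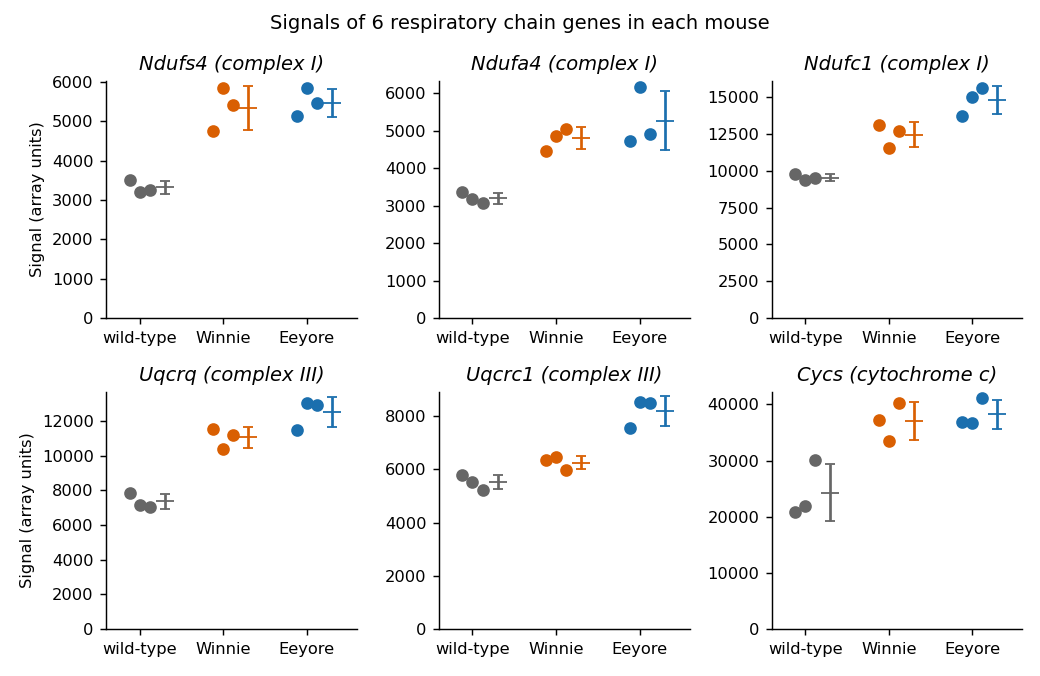
Array signal (y axis, linear from 0) of 6 respiratory chain genes, 1 point per mouse, with bars for the mean and SD of each group of 3 mice. Mutant mice lie above the wild-type mice in all 6 panels. For *Uqcrc1* and *Ndufc1* each *Eeyore* mouse lies above each *Winnie* mouse, and only *Uqcrc1* passed the test between the strains.

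The strains differed in *Ndufa10*, an accessory subunit of the membrane arm encoded on chromosome 1. It measured 6483, 6114 and 6627 in the wild-type mice, 6257, 4866 and 5698 in the *Winnie* mice and 8493, 9136 and 7172 in the *Eeyore* mice. *Eeyore* mice lay above all the others, and *Winnie* mice overlapped the wild-type range. The difference from wild-type was -0.20 ± 0.12 (adjusted p = 0.237) in *Winnie* and 0.36 ± 0.12 (adjusted p = 0.0343) in *Eeyore* mice, and *Eeyore* exceeded *Winnie* mice by 0.56 ± 0.12 (adjusted p = 0.025). Of the other complex I genes, *Ndufa5* and *Ndufa6* passed the test against wild-type in *Winnie* mice, with log2 differences of 0.31 and 0.30. *Ndufb5*, *Ndufb7*, *Ndufb9*, *Ndufb10*, *Ndufs3* and *Ndufv2* passed it in *Eeyore* mice, with differences between 0.26 and 0.37. None of these 8 passed the test between the strains (limma, adjusted p from 0.165 for *Ndufb10* to 0.683 for *Ndufv2*). *Ndufs3* and *Ndufv2* are core subunits of the arm that takes up NADH, and the 4 *Ndufb* genes encode accessory subunits of the membrane arm.

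*Ndufb3*, an accessory subunit of the membrane arm on chromosome 1, measured 5759, 6014 and 5893 in the wild-type mice, 6406, 6475 and 6264 in the *Winnie* mice and 6282, 6030.0 and 5887 in the *Eeyore* mice. Its differences of 0.12 ± 0.08 (adjusted p = 0.315) in *Winnie* and 0.04 ± 0.08 (adjusted p = 0.714) in *Eeyore* mice did not pass the test. *Ndufa1*, the one X-linked gene of the 38, encodes a small subunit of the membrane arm. Its signals were 28784, 27082 and 27509 in the wild-type mice, 27605, 23043 and 26506 in the *Winnie* mice and 26182, 24652 and 24996 in the *Eeyore* mice. They were lower in *Eeyore* than in each wild-type mouse, with differences of -0.12 ± 0.08 (adjusted p = 0.32) in *Winnie* and -0.14 ± 0.08 (adjusted p = 0.214) in *Eeyore* mice that did not pass the test. With quantile normalization *Ndufa1* fell in *Eeyore* mice by 0.27 on the log2 scale (limma, adjusted p = 0.0161), and with epithelial centring it fell in both strains, with differences of -0.29 in *Winnie* (limma, adjusted p = 0.0107) and -0.41 in *Eeyore* mice (limma, adjusted p = 0.000862). With median centring it rose in *Winnie* mice instead, by 0.29 (limma, adjusted p = 0.00838). With *Xist* high on the wild-type arrays, sex and *Muc2* allele cannot be told apart for this X-linked gene in particular.

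Of the 4 genes of complex II, the succinate dehydrogenase shared with the tricarboxylic acid cycle, *Sdhd* rose in *Winnie* and *Sdhb* and *Sdhc* in *Eeyore* mice. *Sdhb*, the iron-sulphur subunit encoded on chromosome 4, had signals of 11436, 11874 and 11653 in the wild-type mice, 12369.8, 11987 and 11336 in the *Winnie* mice and 14838, 15616 and 15692 in the *Eeyore* mice. *Eeyore* mice were above all the others, and *Winnie* mice overlapped wild-type mice. The difference was 0.03 ± 0.07 (adjusted p = 0.808) in *Winnie* and 0.40 ± 0.07 (adjusted p = 0.00198) in *Eeyore* mice, and 0.37 ± 0.07 (adjusted p = 0.0191) between *Eeyore* and *Winnie* mice. *Sdhd*, a membrane anchor encoded on chromosome 9, had signals of 7574, 7679 and 8193 in the wild-type mice, 9182, 10355 and 9464 in the *Winnie* mice and 9069, 8971 and 9015 in the *Eeyore* mice. *Winnie* mice were the highest, and each mutant mouse lay above each wild-type mouse. It rose by 0.31 ± 0.08 (adjusted p = 0.0188) in *Winnie* mice, and the difference of 0.21 ± 0.08 (adjusted p = 0.0708) in *Eeyore* mice did not pass the test, nor did that of -0.10 ± 0.08 (adjusted p = 0.611) between *Eeyore* and *Winnie* mice. *Sdhc*, the other membrane anchor, rose by 0.32 ± 0.09 (adjusted p = 0.0205) in *Eeyore* mice, with -0.06 ± 0.09 (adjusted p = 0.676) in *Winnie* mice. *Sdha*, the flavoprotein that oxidises succinate, had differences of -0.06 and -0.13 that did not pass the test. Each *Eeyore* mouse lay below each wild-type mouse for *Sdha*. In *Eeyore* mice it fell with quantile normalization (-0.27, limma, adjusted p = 0.0256) and with epithelial centring (-0.41, limma, adjusted p = 0.00501). The median over the 4 genes was -0.01 in *Winnie* and 0.27 in *Eeyore* mice.

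Complex III, which passes electrons from ubiquinol to cytochrome c, had a median of 0.17 in *Winnie* and 0.45 in *Eeyore* mice on the deposited scale. Of its 6 genes, *Uqcrq* rose in *Winnie* mice and 5 rose in *Eeyore* mice. *Uqcrq*, a small subunit encoded on chromosome 11, measured 7849, 7168 and 7059.5 in the wild-type mice, 11569, 10387 and 11223 in the *Winnie* mice and 11502, 13058 and 12948 in the *Eeyore* mice. Mutant and wild-type mice did not overlap. It rose by 0.59 ± 0.09 (adjusted p = 0.000978) in *Winnie* and by 0.76 ± 0.09 (adjusted p = 0.000119) in *Eeyore* mice, a fold of 1.5 and 1.7. *Uqcrc1*, a core subunit encoded on chromosome 9, had signals of 5779.5, 5547 and 5237 in the wild-type mice, 6342, 6461 and 5975 in the *Winnie* mice and 7571, 8537 and 8502 in the *Eeyore* mice. The 3 groups were separate, in the order wild-type, *Winnie*, *Eeyore*. The difference from wild-type was 0.18 ± 0.09 (adjusted p = 0.157) in *Winnie* and 0.57 ± 0.09 (adjusted p = 0.000726) in *Eeyore* mice, and *Eeyore* exceeded *Winnie* mice by 0.39 ± 0.09 (adjusted p = 0.0398).

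*Uqcrfs1*, the Rieske iron-sulphur protein encoded on chromosome 13, measured 13301, 12720.1 and 11201 in the wild-type mice, 15341, 13686 and 14781 in the *Winnie* mice and 16818, 17299 and 16074 in the *Eeyore* mice. The groups did not overlap, with differences of 0.24 ± 0.09 (adjusted p = 0.0681) in *Winnie* and 0.43 ± 0.09 (adjusted p = 0.00314) in *Eeyore* mice. *Cyc1*, the haem protein of complex III that hands electrons to cytochrome c, lies on chromosome 15 and had signals of 13832, 13544 and 13022 in the wild-type mice, 16920.4, 12786 and 15129 in the *Winnie* mice and 17781, 19148 and 18702 in the *Eeyore* mice. *Winnie* mice spanned the wild-type range, and *Eeyore* mice lay above all the others. It rose by 0.46 ± 0.10 (adjusted p = 0.00452) in *Eeyore* mice, against 0.14 ± 0.10 (adjusted p = 0.323) in *Winnie* mice. *Uqcrb*, the remaining gene that rose in *Eeyore* mice, differed by 0.21 there, and *Uqcrc2* by 0.24, which did not pass the test. A dimmer probe set of *Uqcrc2* did pass it in *Eeyore* mice, with 0.40 (limma, adjusted p = 0.00457). A dimmer probe set of *Uqcrb* rose in *Winnie* mice by 0.46 (limma, adjusted p = 0.00287).

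*Cycs* encodes cytochrome c, the soluble carrier between complexes III and IV that is also released in apoptosis, and lies on chromosome 6. Its signals were 20821, 21926 and 30132 in the wild-type mice, 37292, 33564 and 40199.9 in the *Winnie* mice and 36857, 36602 and 41158 in the *Eeyore* mice. Wild-type mouse 3 was well above the other wild-type mice, yet each mutant mouse was higher still. *Cycs* rose by 0.62 ± 0.13 (adjusted p = 0.00513) in *Winnie* and by 0.67 ± 0.13 (adjusted p = 0.00231) in *Eeyore* mice, a fold of 1.54 and 1.59. Its rise passed the test in both strains without any 1 of the 9 mice.

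Of the 6 measured genes of complex IV, the cytochrome c oxidase that passes electrons to oxygen, 1 rose in *Winnie* and 2 in *Eeyore* mice, with medians of 0.08 and 0.16. *Cox7a2*, the widely expressed isoform of a small membrane subunit, encoded on chromosome 9, had signals of 39261, 38388 and 38874 in the wild-type mice, 45243, 43737 and 48942 in the *Winnie* mice and 46856, 47488 and 53287 in the *Eeyore* mice. Mutant and wild-type mice did not overlap, and it rose by 0.24 ± 0.07 (adjusted p = 0.0326) in *Winnie* and by 0.34 ± 0.07 (adjusted p = 0.00479) in *Eeyore* mice. *Cox5a*, a matrix-facing subunit also encoded on chromosome 9, measured 26926, 24895 and 24191 in the wild-type mice, 26678, 24106 and 28184 in the *Winnie* mice and 32289, 34873 and 37540.0 in the *Eeyore* mice. *Winnie* and wild-type mice overlapped, and *Eeyore* mice lay above both. The difference was 0.05 ± 0.08 (adjusted p = 0.687) in *Winnie* and 0.46 ± 0.08 (adjusted p = 0.00206) in *Eeyore* mice, and 0.41 ± 0.08 (adjusted p = 0.0259) between the strains.

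On their brightest probe sets, the other complex IV genes did not pass the test in either strain. *Cox8a*, a small membrane subunit on chromosome 19, measured 9601, 9255 and 8792 in the wild-type mice, 9915, 10236 and 9757 in the *Winnie* mice and 9369.9, 9556 and 9706 in the *Eeyore* mice, with differences of 0.11 ± 0.08 (adjusted p = 0.301) and 0.05 ± 0.08 (adjusted p = 0.638). *Cox6c*, a small membrane subunit on chromosome 15, measured 31101, 31082 and 28946 in the wild-type mice, 31583, 33909 and 34024 in the *Winnie* mice and 31871, 31272 and 29742 in the *Eeyore* mice, with differences of 0.13 ± 0.07 (adjusted p = 0.204) and 0.03 ± 0.07 (adjusted p = 0.792). Together with *Ndufb3* they had the 3 smallest mean absolute differences of the set. *Cox4i1* and *Cox5b* had differences of -0.10 and 0.01 in *Winnie* and of 0.12 and 0.20 in *Eeyore* mice. A dimmer probe set of *Cox5b* rose in *Eeyore* mice by 0.29 (limma, adjusted p = 0.0209), and its other tested probe sets did not pass the test.

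Between the strains, the difference was positive (*Eeyore* above *Winnie*) for 29 of the 38 genes. It was positive for 5499 of all 11453 tested genes and for 582 of the 1042 bright genes. The median was 0.14 over the set, -0.01 over all tested genes and 0.03 over the bright genes. The difference passed the test for the 4 genes *Ndufa10*, *Sdhb*, *Uqcrc1* and *Cox5a*, all higher in *Eeyore* mice, and for 0 genes in the other direction. This is 10.5% of the set, against 1.29% of all tested genes called higher and 1.3% called lower, and 3.93% and 2.59% of the bright genes. At an unadjusted p under 0.05 in limma, 13 genes were higher and 1 lower in *Eeyore* mice, again without a count over all tested genes. Of the 4, *Cox5a* was called under each of the 4 scalings and the other 3 under 2 of them. The other tested probe sets of *Cox5a* did not pass the test between the strains. Their differences were 0.20 (limma, adjusted p = 0.397) and 0.21 (limma, adjusted p = 0.503). All 4 calls were lost where only the *Winnie* and *Eeyore* arrays were fitted, or without *Eeyore* mouse 2.

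The remaining probe sets of the same genes were not used to represent them. Of 82 probe sets annotated to the 38 genes alone, 71 passed the filter, and 33 of these, for 21 genes, were not the brightest. Of the 33, 5 rose in *Winnie* and 17 in *Eeyore* mice and 0 fell in either (limma), with median differences of 0.16 and 0.32. The call of a single gene could depend on the probe set, in both directions. For *Cox5b*, *Ndufs7*, *Ndufs8*, *Ndufv1* and *Uqcrc2* in *Eeyore* mice, a dimmer probe set rose where the brightest did not pass the test. This also held for *Ndufb5* and *Uqcrb* in *Winnie* mice. For *Ndufs4* the brightest rose in both strains and the other tested probe sets did not pass the test. The same was seen for *Ndufa5*, *Ndufc1* and *Sdhd* in *Winnie* mice, and for *Ndufb9*, *Ndufv2* and *Sdhc* in *Eeyore* mice.

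Among complex I subunits outside the set, 5 of 12 tested rose in the *Winnie* strain, 7 rose in *Eeyore* mice and 0 fell in either. Their medians were 0.20 and 0.30. *Ndufb6*, an accessory subunit of the membrane arm, measured 6299.8, 5784 and 8156 in the wild-type mice, 9742, 9501 and 9782 in the *Winnie* mice and 11009.7, 11635 and 11956 in the *Eeyore* mice, and rose by 0.54 ± 0.11 (adjusted p = 0.00682) and 0.79 ± 0.11 (adjusted p = 0.000498). Mutant mice lay above wild-type mice, and *Eeyore* above *Winnie* mice, although the difference of 0.25 ± 0.11 between the strains (limma, adjusted p = 0.317) did not pass the test. *Ndufc2* rose by 0.39 ± 0.07 (adjusted p = 0.00339) in *Winnie* and 0.40 ± 0.07 (adjusted p = 0.00176) in *Eeyore* mice, and *Ndufb2* by 0.48 ± 0.10 (adjusted p = 0.00656) and 0.41 ± 0.10 (adjusted p = 0.0102). For *Ndufb2* the mean over its probe sets had the opposite sign in both strains. With epithelial centring 0 of the 12 rose in *Winnie* and 1 in *Eeyore* mice.

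Of 7 further subunits of complexes III and IV, 0 rose and 1 fell in *Winnie* mice, and 2 rose and 0 fell in *Eeyore* mice. With median centring 6 and 5 rose and 0 fell, and with epithelial centring 0 rose and 3 and 2 fell. *Cox7a2l*, a factor that joins complexes III and IV into supercomplexes, measured 8621, 8541 and 7655 in the wild-type mice, 6317, 5045 and 7056 in the *Winnie* mice and 6304, 6766 and 6772 in the *Eeyore* mice. It fell by 0.44 ± 0.12 on the log2 scale in *Winnie* mice (adjusted p = 0.0195), and its difference in *Eeyore* mice was -0.32 ± 0.12 (adjusted p = 0.0571). Mutant and wild-type mice did not overlap. *Uqcr10* and *Uqcr11*, small subunits of complex III, rose in *Eeyore* mice by 0.49 ± 0.08 (adjusted p = 0.000977) and 0.36 ± 0.08 (adjusted p = 0.00504), and had differences of 0.21 and 0.23 in *Winnie* mice. The second brightest probe set of *Uqcr10* ran the other way in *Eeyore* mice, by -2.66 (limma, adjusted p = 2.44e-05), so the probe sets of this gene disagree. The isoforms of cytochrome c oxidase restricted to muscle or other tissues were called in neither strain on the deposited scale, although with median centring 1 of the 3 tested rose in *Winnie* and 2 in *Eeyore* mice, with quantile normalization 1 rose in *Eeyore* mice, and with epithelial centring 1 fell in *Winnie* mice. *Cox7a1*, the heart and skeletal muscle isoform, measured 2442, 2504 and 2359 in the wild-type mice, 2932, 2057 and 2788 in the *Winnie* mice and 2808, 2561 and 2416 in the *Eeyore* mice, with differences of 0.07 ± 0.13 (adjusted p = 0.732) and 0.09 ± 0.13 (adjusted p = 0.648). Of the other 2 tested isoforms, *Cox6a2* was dim, at 15.5 to 187 over the 9 mice, with differences of 1.05 ± 0.65 (adjusted p = 0.271) and 1.84 ± 0.65 (adjusted p = 0.0523). *Cox6b2* lay between 172 and 368, with differences of -0.54 ± 0.23 (adjusted p = 0.108) and -0.22 ± 0.23 (adjusted p = 0.492). The other 4 of the 7 listed did not pass the filter on low signals.

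ATP synthase, the enzyme that uses the proton gradient, had median differences close to those of the chain. Of its 17 tested genes 4 rose in *Winnie* mice, 14 rose in *Eeyore* mice and 0 fell, with medians of 0.17 and 0.31. Quantile normalization gave 4 and 7 rises, median centring 17 in both strains, and epithelial centring 2 and 2. *Atp5mk*, a small subunit at the dimer interface of the enzyme, measured 9095, 8582 and 15654 in the wild-type mice, 22399.5, 22022 and 23842 in the *Winnie* mice and 24885, 24814 and 23468 in the *Eeyore* mice. Wild-type mouse 3 stood above the other wild-type mice, and each mutant mouse above it. *Atp5mk* rose by 1.09 ± 0.17 (adjusted p = 0.00148) in *Winnie* and 1.19 ± 0.17 (adjusted p = 0.000535) in *Eeyore* mice, a fold of 2.13 and 2.28. *Atp5mc1*, 1 of the genes for subunit c of the rotor ring, measured 8505, 8856 and 8839 in the wild-type mice, 13013, 13556 and 12379.9 in the *Winnie* mice and 16386, 19485 and 15428 in the *Eeyore* mice. Its 3 groups did not overlap, and it rose by 0.57 ± 0.09 (adjusted p = 0.00163) and 0.96 ± 0.09 (adjusted p = 3.58e-05). *Atp5pf*, coupling factor F6 of the stalk, rose by 0.31 ± 0.09 (adjusted p = 0.0223) in *Winnie* and 0.48 ± 0.09 (adjusted p = 0.0017) in *Eeyore* mice. *Atp5mk* and *Atp5mc1* rose under each of the 4 scalings in both strains, although the mean over all probe sets of *Atp5mc1* was -0.11 in *Winnie* mice.

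Of 36 tested assembly factors, which insert cofactors and join subunits, 7 rose in *Winnie* and 16 in *Eeyore* mice and 0 fell, with medians of 0.22 and 0.29. With epithelial centring 3 rose and 2 fell in *Winnie* mice, against 3 and 4 in *Eeyore* mice. *Timmdc1*, an assembly factor of complex I, measured 311, 223 and 250.5 in the wild-type mice, 289, 239 and 265 in the *Winnie* mice and 943, 699 and 534 in the *Eeyore* mice. *Winnie* mice lay within the wild-type range and *Eeyore* mice above it, with differences of 0.03 ± 0.23 (adjusted p = 0.95) and 1.45 ± 0.23 (adjusted p = 0.000828). *Cox18*, which inserts a core subunit of complex IV into the membrane, measured 579, 491 and 432 in the wild-type mice, 554, 730.3 and 567 in the *Winnie* mice and 1081, 1081 and 1145 in the *Eeyore* mice, with differences of 0.30 ± 0.16 (adjusted p = 0.204) and 1.15 ± 0.16 (adjusted p = 0.000431). *Coa7*, a further factor for complex IV, rose by 0.97 ± 0.21 (adjusted p = 0.00733) and 0.72 ± 0.21 (adjusted p = 0.0221). Of 13 subunits encoded in mitochondrial DNA 1, *mt-Nd5* of complex I, had a probe set annotated to it here. It measured 32620.4, 36679.5 and 31275 in the wild-type mice, 31316, 42212 and 40126 in the *Winnie* mice and 41649, 37843 and 41544 in the *Eeyore* mice, with differences of 0.17 ± 0.11 (adjusted p = 0.287) and 0.27 ± 0.11 (adjusted p = 0.0792). Neither passed the test.

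**Figure D4:**
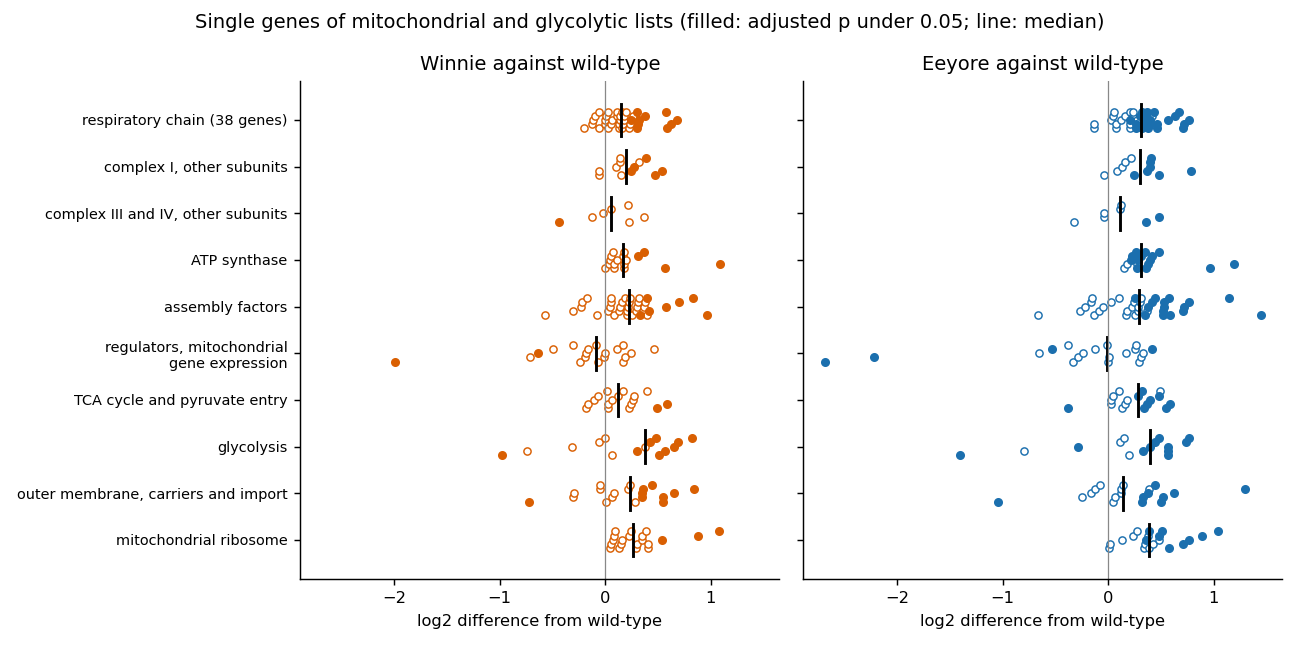
The log2 difference from wild-type (x axis) of every tested gene of the respiratory chain set and of 9 further lists, in *Winnie* (left) and *Eeyore* mice (right). Filled points have an adjusted p under 0.05 in limma's test, and black lines are medians. *Ppargc1a* is the point farthest to the left in both panels, at -2.00 and -2.69.

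Few regulators of mitochondrial gene expression passed the test. Of 19 genes 0 rose and 2 fell in *Winnie* mice, against 1 and 3 in *Eeyore* mice, with medians of -0.09 and -0.01, while with median centring 5 rose in each strain and 1 and 2 fell, with medians of 0.32 and 0.31. *Ppargc1a* encodes PGC-1α, a coactivator that raises expression of nuclear genes for oxidative metabolism. Its signals were 1874, 1298 and 1777 in the wild-type mice, 498, 243 and 561 in the *Winnie* mice and 229, 207 and 342 in the *Eeyore* mice. Mutant and wild-type mice were far apart, and it fell by 2.00 ± 0.30 on the log2 scale in *Winnie* (adjusted p = 0.00108) and fell by 2.69 ± 0.30 in *Eeyore* mice (adjusted p = 0.000108). The fall passed the test under each of the 4 scalings. Its relative *Ppargc1b* measured 3548, 3117 and 2651 in the wild-type mice, 2257, 1797 and 1939 in the *Winnie* mice and 2207, 2283 and 2627 in the *Eeyore* mice, and fell by 0.63 ± 0.13 in *Winnie* mice (adjusted p = 0.00697), with -0.38 ± 0.13 (adjusted p = 0.0507) in *Eeyore* mice. *Esrrg*, an oestrogen-related receptor that works with PGC-1α, measured 232, 301 and 225 in the wild-type mice, 135, 227 and 116 in the *Winnie* mice and 103, 76.2 and 19.6 in the *Eeyore* mice. It fell by 2.22 ± 0.54 in *Eeyore* mice (adjusted p = 0.00975), with -0.72 ± 0.54 (adjusted p = 0.369) in *Winnie* mice, and its signals were dim in the mutant mice.

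Of 17 genes of the tricarboxylic acid cycle and pyruvate entry, 2 rose and 0 fell in *Winnie* mice, against 8 and 1 in *Eeyore* mice, with medians of 0.12 and 0.28. With epithelial centring 1 rose and 2 fell in *Winnie* mice, against 0 and 2 in *Eeyore* mice. *Dld* and *Dlat*, shared and acetyl-transferring subunits of the pyruvate dehydrogenase complex, rose in both strains. *Dld* differed by 0.59 ± 0.11 (adjusted p = 0.00357) and 0.59 ± 0.11 (adjusted p = 0.00245), and *Dlat* by 0.49 ± 0.12 (adjusted p = 0.0147) and 0.37 ± 0.12 (adjusted p = 0.0404). *Pdhx*, which anchors *Dld* in that complex, had differences of 0.39 and 0.50 that did not pass the test. Of 15 genes of glycolysis, 8 rose and 1 fell in *Winnie* mice, against 9 and 2 in *Eeyore* mice, with medians of 0.38 and 0.40. With epithelial centring 4 rose and 1 fell in *Winnie* mice, against 2 and 3 in *Eeyore* mice. *Pgk1*, an X-linked glycolytic kinase, measured 10442, 10851 and 10679 in the wild-type mice, 17184, 20919 and 18801 in the *Winnie* mice and 16268, 18099 and 19122 in the *Eeyore* mice, and rose by 0.83 ± 0.09 (adjusted p = 0.000198) and 0.74 ± 0.09 (adjusted p = 0.000189). *Ldhb*, the lactate dehydrogenase subunit of oxidative tissues, measured 796, 1031 and 538 in the wild-type mice, 455, 345 and 367 in the *Winnie* mice and 257, 301 and 307 in the *Eeyore* mice. It fell by 0.98 ± 0.23 in *Winnie* (adjusted p = 0.0109) and fell by 1.40 ± 0.23 in *Eeyore* mice (adjusted p = 0.00104). *Pfkm*, the muscle phosphofructokinase, had differences of -0.75 ± 0.35 (adjusted p = 0.15) and -0.80 ± 0.35 (adjusted p = 0.109).

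Of 19 genes for outer membrane channels, carriers and protein import, 8 rose and 1 fell in each strain, with medians of 0.24 and 0.15. With epithelial centring 2 rose in each strain, and 3 fell in *Winnie* and 6 in *Eeyore* mice. *Tomm40*, the channel through which most proteins enter mitochondria, measured 647, 629 and 637 in the wild-type mice, 929.5, 1382 and 1155 in the *Winnie* mice and 1527, 1881 and 1334 in the *Eeyore* mice, and rose by 0.84 ± 0.17 (adjusted p = 0.00512) and 1.29 ± 0.17 (adjusted p = 0.00027). *Hspe1*, the co-chaperonin of the matrix, rose by 0.66 ± 0.09 (adjusted p = 0.000678) and 0.63 ± 0.09 (adjusted p = 0.000509). *Slc25a4*, the ADP/ATP carrier of heart and muscle, measured 3933, 3787 and 4082 in the wild-type mice, 2427, 2484 and 2242 in the *Winnie* mice and 1879, 1984 and 1846 in the *Eeyore* mice. It fell by 0.72 ± 0.10 in *Winnie* (adjusted p = 0.000542) and fell by 1.05 ± 0.10 in *Eeyore* mice (adjusted p = 2.69e-05). Of 20 genes of the mitochondrial ribosome, 3 rose in *Winnie* and 9 in *Eeyore* mice and 0 fell, with medians of 0.27 and 0.38. With epithelial centring 3 rose in *Winnie* and 4 in *Eeyore* mice. *Mrpl20* rose by 1.08 ± 0.12 (adjusted p = 0.000198) and 0.89 ± 0.12 (adjusted p = 0.000327), and *Mrps22* by 0.88 ± 0.14 (adjusted p = 0.00165) and 1.04 ± 0.14 (adjusted p = 0.000382). *Mrpl3* rose by 0.77 ± 0.14 (adjusted p = 0.00228) in *Eeyore* mice, with 0.38 ± 0.14 (adjusted p = 0.075) in *Winnie* mice.

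The make-up of the tissue moved with the groups. The 8 epithelial markers measured had summed signals of 159421 to 166205 in wild-type, 184791 to 193610 in *Winnie* and 200620 to 217451 in *Eeyore* mice. In *Winnie* and *Eeyore* mice 3 and 5 of the 8 rose, *Krt19* and *Vil1* in both strains, and 0 fell. In each strain 1 marker had a negative difference, at -0.31 in *Winnie* and -0.11 in *Eeyore* mice. The median differences of the 8 markers, 0.18 and 0.30, were close to the 0.15 and 0.31 of the respiratory chain genes. All 11 smooth muscle markers measured fell in both strains (10 of 11 in *Winnie* mice with quantile normalization or median centring), with medians of -1.13 and -1.56 and summed signals of 169372 to 174388, 77824 to 83899 and 62216 to 68739.8. Of the 3 tested adipocyte markers (of 7 listed) *Adipoq* and *Fabp4* fell in each strain on the deposited scale and neither did so in *Winnie* mice with median centring, with summed signals of 8049 to 9948, 2337 to 6144 and 619.5 to 1764. Of 3 tested skeletal muscle markers, of 7 listed, 0 passed the test in *Winnie* and 2 fell in *Eeyore* mice (0 with quantile normalization or median centring), with summed signals of 864 to 945, 545 to 986 and 425 to 728. The defining markers *Myh1* and *Myh4* did not pass the filter on low signals.

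Among 8 markers of absorptive colonocytes 1 rose and 1 fell in *Winnie* mice, against 1 and 2 in *Eeyore* mice, with summed signals of 189244 to 218953, 169255 to 221798 and 177243 to 192450. Unlike those of the 8 epithelial markers, their median differences were negative, at -0.21 in *Winnie* and -0.18 in *Eeyore* mice. Of 8 goblet cell markers 1 rose and 4 fell in *Winnie* mice, against 1 and 3 in *Eeyore* mice (with median centring 2 and 3, against 4 and 2), with sums of 300516 to 329403, 188167 to 236779 and 254995 to 280074. The median difference of these markers on the deposited scale was -0.42 in *Winnie* and 0.04 in *Eeyore* mice. *Muc2* itself was among those that fell in both strains, with -1.27 ± 0.12 (adjusted p = 8.01e-05) and -1.13 ± 0.12 (adjusted p = 7.67e-05). In *Winnie* and *Eeyore* mice, 2 and 3 of 5 tested markers of neurons and glia fell, 2 and 3 of 6 of fibroblasts, and 1 and 2 of 3 of endothelium. In *Winnie* mice 0 of those of neurons and glia and of endothelium fell with median centring, and 0 of endothelium with quantile normalization. Of 6 leukocyte markers 1 rose in *Winnie* and 2 in *Eeyore* mice, with sums of 8465 to 10806, 10401 to 17235 and 10166 to 41884. In RNA of whole tissue, fewer cells of a type and less RNA per cell cannot be told apart. The part of these shifts in the respiratory chain values was not tested.

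**Figure D5:**
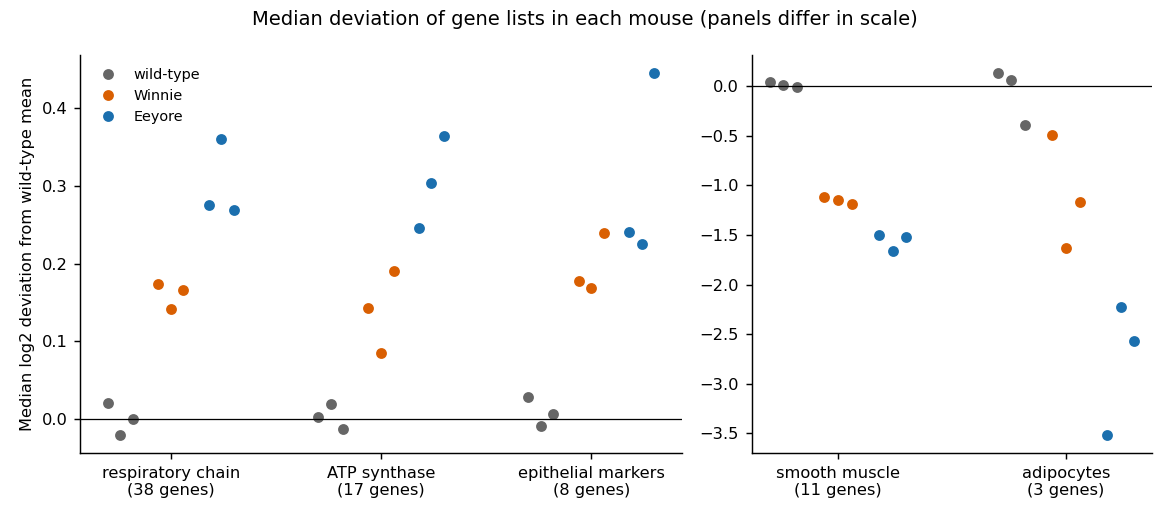
Median log2 deviation from the wild-type mean (y axis) of each mouse (points) over the genes of a list. Left, the 38 respiratory chain genes, 17 ATP synthase genes and 8 epithelial markers, in which the mutant mice are higher. Right, on a wider scale, 11 smooth muscle and 3 adipocyte markers, in which *Winnie* and *Eeyore* mice are lower than wild-type mice.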

How the data were processed

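RNA from the large intestine of 9 mice, 3 per group, was measured on Affymetrix arrays of 45101 probe sets, 1 array per mouse. The deposited values were linear intensity values (signals), summarised per probe set and scaled by the authors to 1 trimmed mean on every array, here 500. The software version was not given in the sources used here. Arrays hold no counts, so the number of mice limits the precision. The 64 control probe sets were left out, log2 was taken, and 22519 of the remaining 45037 probe sets with a mean log2 signal at or above the 50th percentile were tested with limma 3.58.1 in R 4.3.3 (lmFit and eBayes with an intensity trend, all 9 arrays in one fit), with Benjamini-Hochberg adjustment over all tested probe sets and a threshold of 0.05. A gene was represented by the brightest probe set annotated to it alone. Errors after log2 differences are standard errors of that fit. With 3 mice against 3, an exact permutation test of a single gene cannot give a two-sided p below 0.1.

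Respiratory chain genes given with values in every mouse are the 10 with the largest mean absolute difference, the 2 largest of each complex, the 4 with the smallest p between the strains, the 3 that moved least and the X-linked one. The 3 largest of each further list are named. The genes and lists were chosen with earlier results of these data known, and the lists and rules were not independent of them. The fit was tested on simulated data. The simulated arrays had independent errors and did not differ in scaling, so that run cannot bear on how the results depend on the scaling. The alternatives tried were 3 other scalings, filters, offset, trend, groups fitted, probe set choice, mouse number as a block and leaving out each mouse. Promoter sequences were of RefSeq, and no genome was used here. Figures were drawn with matplotlib 3.10.9.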

Additional observations from a re-analysis of the deposited data

Results flagged for a closer look

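Respiratory chain genes and assembly factors that differed between *Eeyore* and *Winnie* mice by limma's contrast of the 2 strains are listed here with their log2 difference. *Ndufa10* was higher in *Eeyore* mice by 0.56 (adjusted p = 0.025), *Sdhb* by 0.37 (adjusted p = 0.0191), *Uqcrc1* by 0.39 (adjusted p = 0.0398) and *Cox5a* by 0.41 (adjusted p = 0.0259). The other tested probe sets of *Cox5a* did not pass this contrast. Of the assembly factors, *Timmdc1* was higher by 1.42 (adjusted p = 0.00501) and *Cox18* by 0.85 (adjusted p = 0.0154). Each of the 6 was higher in all 3 *Eeyore* mice than in all 3 *Winnie* mice. Allele and mixed strain cannot be told apart in this contrast.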

How the results depend on the processing

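With 1 mouse left out at a time, 5 to 10 respiratory chain genes rose in *Winnie* and 13 to 23 in *Eeyore* mice, and 0 to 5 were higher in *Eeyore* than in *Winnie* mice. The medians ran from 0.14 to 0.16, from 0.27 to 0.32 and from 0.10 to 0.19. In *Winnie* mice 5 genes rose without wild-type mouse 1, 6 without wild-type mouse 2 and 6 without *Winnie* mouse 3. In *Eeyore* mice 14 rose without wild-type mouse 2 and 13 without *Eeyore* mouse 2. Between the strains 2 were called without wild-type mouse 2 or *Winnie* mouse 1, 1 without *Winnie* mouse 2, *Winnie* mouse 3 or *Eeyore* mouse 3, and 0 without *Eeyore* mouse 2.

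The mouse numbers did not pair the mice: correlations of same-numbered mice were -0.008 to 0.164. With the mouse number as a replicate block 10 genes rose in *Winnie*, 21 in *Eeyore* mice and 3 were higher in *Eeyore* than in *Winnie* mice.

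In *Winnie* mice the rises numbered 37 with median centring, 6 with no filter on low signals, 4 with no intensity trend, 4 of 21 with the second brightest probe set and 4 with epithelial centring, which also gave 4 falls. The median was 0.067 with quantile normalization, 0.56 with median centring, 0.19 with the mean over probe sets, 0.23 with the second brightest probe set and -0.023 with epithelial centring. In *Eeyore* mice the rises numbered 12 with quantile normalization, 36 with median centring, 12 with no intensity trend, 10 of 21 with the second brightest probe set and 6 with epithelial centring. Falls numbered 2 with quantile normalization and 3 with epithelial centring. The median was 0.16, 0.63 and 0.031 with quantile normalization, median centring and epithelial centring. Between the strains 1 gene was higher in *Eeyore* mice with median centring, with no filter and with epithelial centring, and 0 with no intensity trend, with the groups compared alone and with the second brightest probe set. That median was 0.093, 0.060 and 0.044 with the 3 scalings in the same order. The cause of these changes was not tested.

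Among single genes in *Winnie* mice, the sign turned with epithelial centring for *Cyc1* (-0.035), *Sdhb* (-0.15), *Cox5a* (-0.12), *Cox8a* (-0.062), *Ndufb3* (-0.060), *Cox6c* (-0.049), *Cox7a1* (-0.10), *Timmdc1* (-0.15) and *mt-Nd5* (-0.0081). It turned with quantile normalization for *Sdhb* (-0.071), *Ndufb3* (-0.00053) and *Cox7a1* (-0.0065), and with median centring for *Ndufa10* (0.21) and *Ndufa1* (0.29). With the mean over probe sets it turned for *Ndufb2* (-0.29), *Atp5mc1* (-0.11) and *Mrpl3* (-0.46). With 1 mouse left out at a time, *Cox7a1* ran from -0.024 (without *Winnie* mouse 1) to 0.23, and *Timmdc1* from -0.083 (without wild-type mouse 2) to 0.16, and was at -0.04 without *Winnie* mouse 1. In *Eeyore* mice the sign turned with epithelial centring for *Sdhd* (-0.070), *Cox8a* (-0.23), *Ndufb3* (-0.23), *Cox6c* (-0.25), *Cox7a1* (-0.19) and *mt-Nd5* (-0.0081). It turned with quantile normalization for *Cox8a* (-0.084), *Ndufb3* (-0.10), *Cox6c* (-0.069) and *Cox6b2* (0.037), and with median centring for *Ndufa1* (0.19), *Cox7a2l* (0.0037) and *Cox6b2* (0.10). With the mean over probe sets it turned for *Cox8a* (-0.14), *Cox6c* (-0.0051), *Ndufb2* (-0.057) and *Uqcr10* (-2.26), and with the second brightest probe set for *Cox6c* (-0.038) and *Uqcr10* (-2.66). With 1 mouse left out at a time, *Cox6c* ran from -0.0066 (without wild-type mouse 3) to 0.056.

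Of the named respiratory chain genes called on the deposited scale, 1 of 8 in *Winnie*, 4 of 14 in *Eeyore* mice and 0 of 4 between the strains were called under every alternative run, those with other probe sets included.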
